A study of Mus musculus with 6 samples.

Results

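The endoplasmic reticulum chaperone and secretory genes described here are 48 genes of the 21881 in each of 2 deposited expression tables, taken by name from a list and found in both tables. They encode the stress sensors of the organelle, its chaperones and folding enzymes, its degradation machinery and the complexes that carry a nascent protein across its membrane, trim it and glycosylate it. Of the 48, 47 were tested by the authors in each comparison, and Derl3 was not tested in either. All gene lists used here were chosen with earlier results of these data known. Shares of listed genes that changed are therefore not independent of that choice. The samples are leukemia cells of the mouse in which the oncogene is AE9a, a shortened AML1-ETO fusion, on the strain background C57/B6X129SV, and every group carries loxP-flanked Id1 on both alleles together with CreER, a recombinase activated by 4-OHT. The 6 samples are 2 controls, 2 given CBD, which the design text calls an Id1 inhibitor, at 15 µM for 16 h, and 2 given 4-hydroxytamoxifen (4-OHT) at 0.1 µM for 48 h to delete Id1. No vehicle is named for the controls and no 4-OHT group without loxP sites is listed, so Cre activity, 4-OHT itself and loss of Id1 cannot be told apart.

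The endoplasmic reticulum folds and modifies proteins bound for the cell surface, for secretion or for other organelles. When unfolded proteins build up in it, the membrane sensors IRE1 (gene Ern1), PERK (Eif2ak3) and ATF6 (Atf6) signal to the nucleus: IRE1 splices the messenger RNA of the transcription factor XBP1, ATF6 is itself cut into a transcription factor, and PERK slows translation. The target genes of ATF6 and XBP1 include chaperones, disulfide isomerases and the genes of endoplasmic reticulum-associated degradation, which sends misfolded proteins back to the cytosol for the proteasome. In myeloid and mast cells the same machinery also builds granule proteases and surface receptors.

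Each table gives 1 FPKM value (sequenced fragments per length of transcript and per total of mapped fragments, so that levels can be compared between genes) for its control and 1 for its treated group. The values of single libraries and their depth are not used here, so no SD or n stands beside a value. A gene is said to rise or fall only where the q of the authors' Cuffdiff test is under 0.05. What spread between libraries the p-values of that test rest on is not stated. Since the labels name no separate cultures within a group, any such spread may be technical. The 2 tables have different control columns, and how many libraries stand behind each is not stated: 1 control sample is described with the CBD comparison and 1 with the 4-OHT comparison. The values of the members are therefore given with both controls, and those of other genes often with the own control only. A ratio is log2 of treated over control with 0.1 FPKM added to each, and "own" and "other" name the control column of the same and of the separately made table, whose comparison was not tested.

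Checks of the labels across the tables bear on how the members read. Id1 fell with 4-OHT, from 15.4 to 0.741 FPKM, and was at 34.2 in the control and 11.95 with CBD without passing the test (q = 0.133 in the authors' deposited table). Of 9 leukemia and progenitor markers measured, 7 reached 1 FPKM in every column, Kit and Myb among them, while Ptprc, the pan-leukocyte CD45 gene, was at 0.0466 to 0.417 FPKM and the granule peroxidase gene Mpo at 0.0151 to 0.0662. With CBD the progenitor factors Myb and Runx1 fell, from 107 to 65.5 and from 92.6 to 47.4 FPKM. Runx1 stayed above the other control, at 38.0. The mast cell genes Cpa3, a granule protease, and Fcer1a, a receptor chain, rose from 71.9 to 658 and from 52.4 to 342 FPKM. Their other controls were 148 and 96.9. Kit and Gata2 were at 85.0 and 113 FPKM in the control and 75.0 and 91.9 with CBD, without passing. The CBD column also held brain transcripts: the summed FPKM of 17 neuron markers was 300.4 with CBD and 25.7 to 46.5 in the other columns, of 10 oligodendrocyte markers 249 against 46.7 to 49.1, and of 7 astrocyte markers 78.7 against 2.62 to 4.03. All 34 of these markers reached 1 FPKM with CBD and 30 rose, whereas Gap43, Stmn2, Nefl, Mog, Aqp4 and S100b were each at 0 in at least 1 other column. Microglia and macrophage markers summed to 22.6 FPKM with CBD against 1.76 to 2.48, and Y-linked genes to 1.97 against 0.0152 to 0.0393. B and plasma cell markers, of a cell type rich in this organelle, summed to 0.765 against 0.937 to 5.65. Most of each of these last sums was 1 gene, Sdc1, at 0.447 FPKM with CBD and 0.745 to 5.43 in the other columns. Brain cells express endoplasmic reticulum genes too, and the part of these transcripts, and of the mast cell genes, in the CBD values below was not tested.

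Stress response elements were searched for in the promoters. The genes were chosen by name and include kinds named above as targets of ATF6 and XBP1. The shares below are therefore not independent of that choice. RefSeq promoters (GRCm38.p6, 250 bases before to 50 after the annotated start) were found for 40 of the 48 genes. The endoplasmic reticulum stress element (ERSE), here CCAAT followed after 9 bases by CCACG on either strand, was present in 9 of the 40 genes (22.5%) and in 37 of all 27025 genes of the table (0.137%). It lay in 6 of 9 chaperone genes, in Pdia6 among the folding enzymes and in Syvn1 and Derl3 among the degradation genes, and in none of the 17 sensor, translocon, signal peptidase and oligosaccharyltransferase genes with a promoter. The ERSE-II, ATTGG followed after 1 base by CCACG, was in Herpud1 and Dnajb11 (5% of the 40 against 0.0444% of all), and the XBP1 element core TGACGTGG in Txndc5 and Txndc11 (5% against 0.714%). The pentamer CCACG alone, which lies inside every ERSE and ERSE-II and, as its reverse complement, inside the XBP1 element core, was in 32 of 40 genes (80%) and in 35.5% of all. A match is a match of letters, not a measured binding site, and no match says only that these letters are absent from this window.

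The ERSE matches of the 8 tested members, and the ERSE-II of Herpud1 as the one that lies before the start, are shown with 20 bases on either side, read in the direction of the gene. Capitals mark the paired motifs of the ERSE (of the ERSE-II in Herpud1), and a match on the opposite strand reads CGTGG first and ATTGG last.
Hspa5, chr2:34772005-34772063, plus strand: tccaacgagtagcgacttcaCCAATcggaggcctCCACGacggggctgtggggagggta
Hsp90b1, chr10:86705513-86705676, minus strand: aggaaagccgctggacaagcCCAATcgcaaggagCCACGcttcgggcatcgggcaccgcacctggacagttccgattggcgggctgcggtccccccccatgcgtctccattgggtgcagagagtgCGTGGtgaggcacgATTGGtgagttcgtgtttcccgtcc
Calr, chr8:84847055-84847113, minus strand: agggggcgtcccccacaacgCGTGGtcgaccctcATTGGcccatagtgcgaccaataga
Canx, chr11:50325780-50325838, minus strand: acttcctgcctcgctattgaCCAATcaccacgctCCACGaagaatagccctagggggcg
Creld2, chr15:88819500-88819558, plus strand: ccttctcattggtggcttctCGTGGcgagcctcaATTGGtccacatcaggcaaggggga
Dnajc3, chr14:118937807-118937865, plus strand: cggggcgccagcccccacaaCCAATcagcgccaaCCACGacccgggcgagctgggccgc
Pdia6, chr12:17266471-17266529, plus strand: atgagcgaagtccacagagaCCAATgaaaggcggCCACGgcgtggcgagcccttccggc
Syvn1, chr19:6046512-6046570, plus strand: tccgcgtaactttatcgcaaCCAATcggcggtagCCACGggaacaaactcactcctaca
Herpud1, chr8:94386357-94386407, plus strand: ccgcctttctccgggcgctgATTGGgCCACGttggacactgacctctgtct
The Hsp90b1 window holds a pair of elements, 1 on each strand. In Hspa5 and Syvn1 the element ends 47 and 26 bases before the start, nearer than in the other 7 genes with an ERSE, Derl3 included, where the nearest ends 80 to 144 bases before it.

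**Figure D1:**
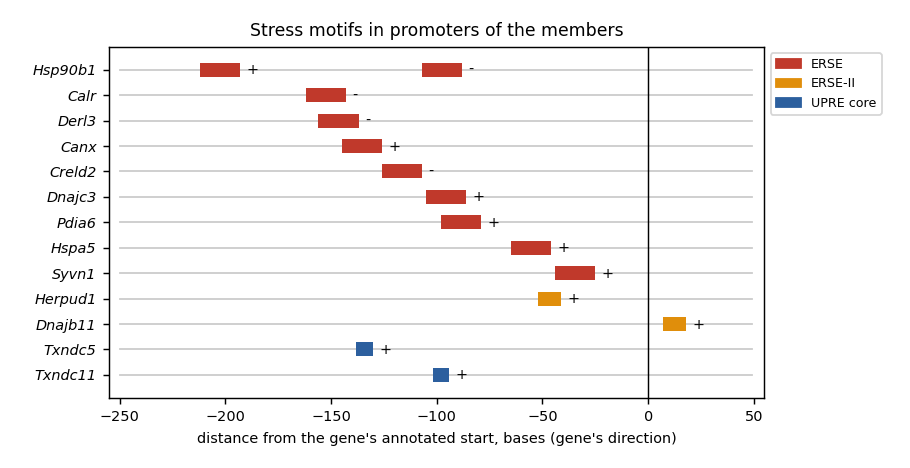
Positions of the ERSE, the ERSE-II and the XBP1 element core (UPRE core) in the promoters of the 13 members that hold one, on an axis of bases from the annotated start in the direction of the gene, with the strand of each match beside it. The ERSEs lie upstream of the start in 9 genes, with 2 in Hsp90b1, and the ERSE-II of Dnajb11 lies just after the start.

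With CBD every member that passed the test against its own control was higher. Of 47 tested genes 21 rose, against 18.4% of all 13751 tested genes, and none fell, against 7.74%. Without adjustment, at a Cuffdiff p under 0.05, 30 of the 47 were higher and 1, Ern1, was lower (p = 0.0246 in the authors' deposited table). At that p 3360 of the 13751 genes were higher and 1493 lower. Of the 41 members whose control values both reached 10 FPKM, 20 rose, where 11.4% of the 5922 tested genes at that level rose and 14.9% fell. Because the members were chosen with earlier results of these data known, these shares are not independent of the choice. The median log2 ratio of the 47 was 0.70, beside 0.29 for all tested genes and 0.01 for those at 10 FPKM or more. Ratios above 0 numbered 41 of 47 for the members and 8731 of 13751 for all tested genes. Fewer cells of a type and less RNA per cell cannot be told apart in such bulk samples. The CBD column also sums to more FPKM than its control, by 0.42 on the log2 scale over genes tested in both tables, and with columns set to the same sum the median of the members was 0.28 and that of all tested genes −0.13.

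The CBD value was above both control columns in 33 of 47 members (70.2%) and below both in 1, Sec63. For genes at 10 FPKM or more in both controls the shares were 31 of 41 members (75.6%) and 38.4% of 5916 genes. Of the 21 that rose, 19 were above both controls, while 18.1% of all tested genes rose and lay above both and 7.23% fell and lay below both. The exceptions were Ssr1 and Dad1, whose CBD values of 37.98 and 259 FPKM lay just under the other control at 38.95 and 278. Against the other control the median of the members was 0.47.

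**Figure D2:**
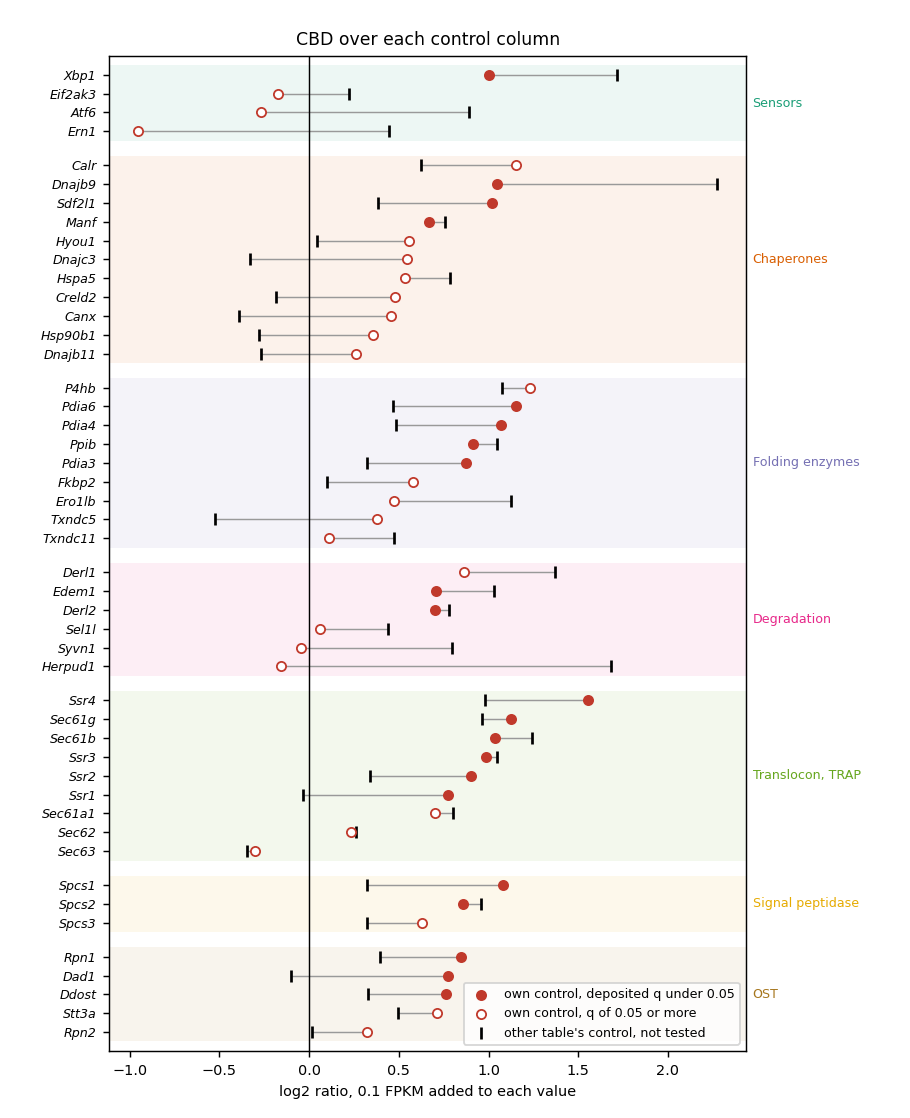
Log2 ratio of the CBD value over each control column (0.1 FPKM added to each value) for the 47 tested members, by role (OST, oligosaccharyltransferase; TRAP, translocon-associated protein). Filled circles are genes with a deposited q under 0.05 against the own control, open circles the others, and black ticks the ratio to the other control; all filled circles lie right of 0, and the ticks of Ssr1 and Dad1 lie left of it.

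With 4-OHT members changed in both directions. Of 47 tested members 10 rose, where 27.2% of 11232 tested genes did, and 12 fell, where 16.9% did. At 10 FPKM or more in both controls 9 of 41 members rose, against 25.9% of 6054 genes, and 11 fell, against 22%. The median log2 ratio of the members was 0.01 (−0.04 with columns set to the same sum), beside 0.05 for all tested genes. None of the 22 changes reached 1.5-fold. The control columns, by contrast, differed from each other by 1.5-fold or more in 18 of 47 members, and the 4-OHT value lay between the controls in 34 (72.3%). At 10 FPKM or more in both controls, the columns differed by 1.5-fold in 34.1% of 41 members and 20.9% of 5916 genes, and the 4-OHT value lay between them in 70.7% and 54.3%. Only 3 of the 10 that rose (Pdia6, P4hb and Sec61g) were above both controls, where 13.9% of tested genes rose and lay above both. Only Stt3a of the 12 that fell was below both, where 5.89% of tested genes fell and lay below both.

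**Figure D3:**
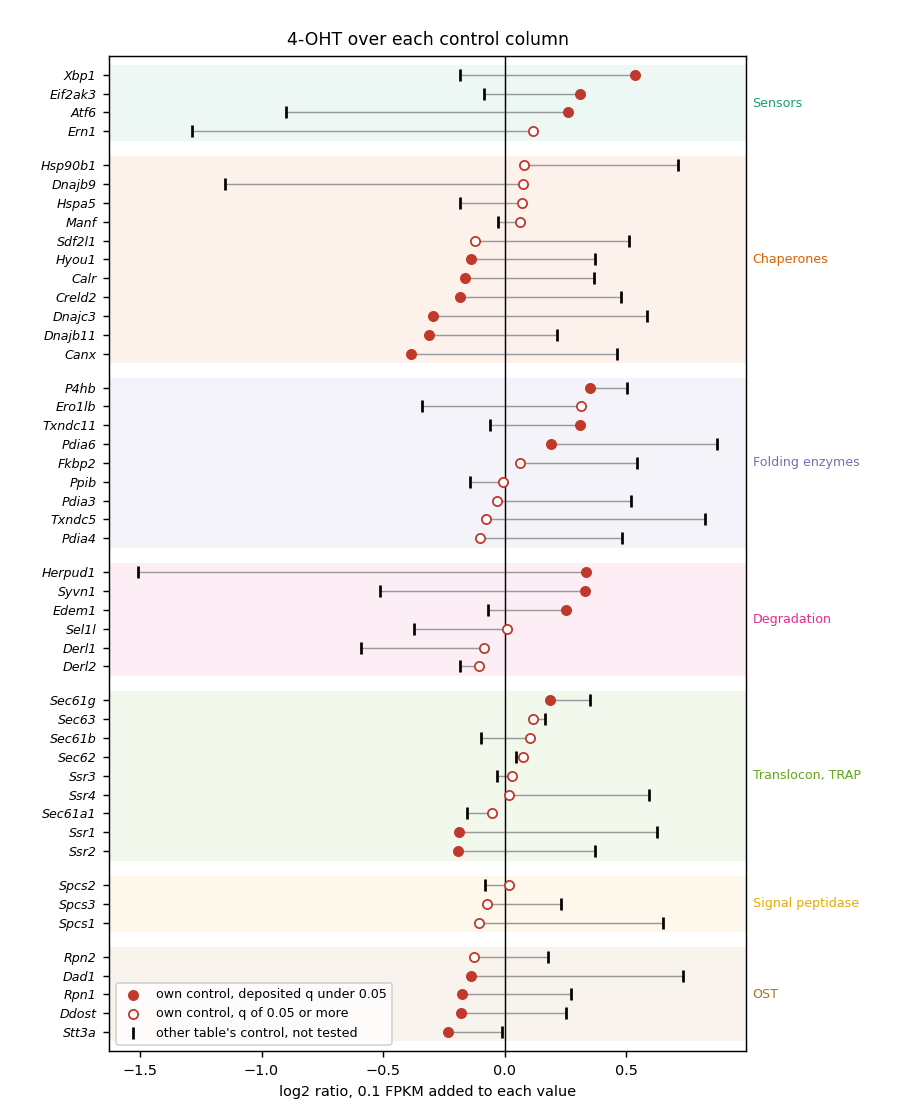
Log2 ratio of the 4-OHT value over each control column, drawn as in the plot for CBD. Filled circles for sensors and degradation genes lie right of 0 with their ticks left of it, and those for chaperones and oligosaccharyltransferase genes lie left of 0 with their ticks right of it, apart from the tick of Stt3a.

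Of the 4 sensor genes 1 rose with CBD, where 18.4% of all tested genes did, and 3 rose with 4-OHT, where 27.2% did. Xbp1, whose mRNA IRE1 splices, stood at 71.4 FPKM in the control and 143 with CBD, and at 43.4 in the control and 62.9 with 4-OHT. It rose in both comparisons (in the authors' deposited table q = 0.000411 with CBD, and q is listed as 0 with 4-OHT) and its CBD value was the highest of the 4 columns. The FPKM covers all transcripts of the gene, and spliced and unspliced forms were not measured apart. Ern1, the gene of IRE1 itself, stood at 13.4 FPKM in the control and 6.87 with CBD, and at 5.01 in the control and 5.44 with 4-OHT. Its control in the CBD table was the highest column, and neither difference passed the test (q = 0.0824 with CBD in the authors' deposited table). Atf6 was at 27.3 FPKM in the control and 22.7 with CBD, and at 12.2 in the control and 14.6 with 4-OHT, and the gene of PERK, Eif2ak3, at 6.601 FPKM in the control and 5.85 with CBD, and at 4.995 in the control and 6.21 with 4-OHT. Both rose with 4-OHT, with log2 ratios of 0.26 and 0.31, yet stayed below the control column of the CBD table. Xbp1 with 4-OHT, at 62.9 FPKM, also lay below that column. All 4 genes were higher in the control of the CBD table than in the other control, with a median log2 difference of 0.94.

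Among the 11 chaperones and co-chaperones 3 rose with CBD, where 18.4% of all tested genes did. All 11 ratios were above 0, with a median of 0.55 (0.13 and 9 of 11 with columns set to the same sum). For all tested genes 8731 of 13751 ratios were above 0, with a median of 0.29 (−0.13 and 6099 with columns set to the same sum). Dnajb9, a J-domain co-chaperone of BiP also known as ERdj4, stood at 17.6 FPKM in the control and 36.6 with CBD, and at 7.49 in the control and 7.896 with 4-OHT. Its CBD value was the highest of the 4 columns and both values of the 4-OHT table were below both of the CBD table. Sdf2l1, a luminal partner of J-domain proteins, stood at 55.2 FPKM in the control and 112 with CBD, and at 85.6 in the control and 78.6 with 4-OHT. Manf, a small secreted and luminal protein that binds BiP, was at 57.2 FPKM in the control and 91.01 with CBD, and at 53.8 in the control and 56.2 with 4-OHT. These 2 rose with CBD (q = 0.000654 and q = 0.0263 in the authors' deposited table) and were above both controls.

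The most abundant chaperones were higher with CBD without passing the test. Hspa5 (chromosome 2, 34627610 to 34632049 in mm9), which encodes the master chaperone BiP, stood at 405 FPKM in the control and 586 with CBD, and at 339.7 in the control and 356 with 4-OHT. Its CBD value was the highest column but missed the threshold (q = 0.0608 in the authors' deposited table). Calr, the lectin chaperone calreticulin, was the most abundant of the 48 genes in every column, at 423 FPKM in the control and 942 with CBD, and at 611 in the control and 546 with 4-OHT. Its log2 ratio of 1.16 with CBD exceeded that of Dnajb9 without passing (q = 0.123 in the authors' deposited table). Canx, the membrane-bound calnexin, stood at 156 FPKM in the control and 214 with CBD, and at 281 in the control and 215 with 4-OHT. Hsp90b1, the HSP90 of the organelle known as GRP94, stood at 122 FPKM in the control and 156 with CBD, and at 189 in the control and 199.8 with 4-OHT. For both the CBD value was above the own control and below the other one.

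The remaining 4 genes passed no test with CBD. Hyou1, an HSP70-related exchange factor for BiP, was at 52.4 FPKM in the control and 77.03 with CBD, and at 74.6 in the control and 67.7 with 4-OHT. Dnajb11 (ERdj3) was at 61.5 FPKM in the control and 73.6 with CBD, and at 88.6 in the control and 71.3 with 4-OHT. Hyou1 had a CBD value just above both controls and that of Dnajb11 lay between them. Dnajc3, a J-domain protein known as p58IPK, was at 9.24 FPKM in the control and 13.6 with CBD, and at 17.1 in the control and 13.9 with 4-OHT. Creld2, a secreted protein induced by stress of the organelle, was at 42.3 FPKM in the control and 59.02 with CBD, and at 67.01 in the control and 59.00 with 4-OHT. For these 2 as well the CBD value lay between the controls, and of the 4 genes only Hyou1 had an unadjusted p under 0.05 in the authors' deposited table.

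With 4-OHT 6 of these 11 genes fell: Canx, Dnajb11, Dnajc3, Creld2, Calr and Hyou1, with log2 ratios from −0.39 (Canx) to −0.14 (Hyou1), and none rose at a q or an unadjusted p under 0.05. Over all tested genes 16.9% fell and 27.2% rose. Canx had the largest fall (q = 1.32e-13 in the authors' deposited table). Each of the 6 was nevertheless above the control column of the CBD table, by a log2 difference of 0.21 (Dnajb11) to 0.59 (Dnajc3). Hspa5, at 339.7 and 356 FPKM in its table, did not pass. Over the 11 genes the control of the CBD table was lower than the other control by a median log2 difference of −0.53, and 3 genes (Hspa5, Dnajb9 and Manf) went the other way.

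Of the 9 disulfide and prolyl folding enzymes 4 rose with CBD, where 18.4% of all tested genes did. All 9 ratios were above 0 (8731 of 13751 for all tested genes), and their median was 0.87 (0.46 and 7 of 9 with columns set to the same sum). Pdia6 (chromosome 12, 17273401 to 17331536 in mm9), a disulfide isomerase that also quiets the IRE1 and PERK sensors, stood at 65.5 FPKM in the control and 146 with CBD, and at 105 in the control and 120.0 with 4-OHT. It rose in both comparisons (q = 6.56e-05 and q = 0.00347 in the authors' deposited table) and is the only member with an ERSE that rose with CBD. Pdia4 (ERp72) was at 32.3 FPKM in the control and 67.8 with CBD, and at 48.5 in the control and 45.2 with 4-OHT. Pdia3 (ERp57), the isomerase that works with calnexin and calreticulin, was at 146 FPKM in the control and 267 with CBD, and at 214 in the control and 209 with 4-OHT. Ppib, the luminal prolyl isomerase cyclophilin B, was at 285 FPKM in the control and 537 with CBD, and at 259 in the control and 258 with 4-OHT. In these 3 genes the CBD value was the highest of the 4 columns and the 4-OHT comparison did not pass.

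P4hb, which encodes protein disulfide isomerase itself, stood at 304 FPKM in the control and 713 with CBD, and at 338 in the control and 429.9 with 4-OHT. The rise with 4-OHT passed the test (q = 1.23e-07 in the authors' deposited table), whereas the larger log2 ratio of 1.23 with CBD did not (q = 0.0974). Txndc11, a thioredoxin-domain protein, rose with 4-OHT from 13.5 to 16.8 FPKM and stood at 17.5 and 18.9 in the CBD table. Txndc5, a thioredoxin-domain isomerase, was at 34.96 FPKM in the control and 45.5 with CBD, and at 65.4 in the control and 61.9 with 4-OHT. Its CBD value was below the other control by a log2 difference of −0.52, the lowest of the 47 members. Fkbp2, a luminal prolyl isomerase, was at 52.5 FPKM in the control and 78.3 with CBD, and at 73.2 in the control and 76.4 with 4-OHT, and Ero1lb, the beta form of the oxidase that recharges protein disulfide isomerase, was the least abundant of the tested members, at 1.44 FPKM in the control and 2.03 with CBD, and at 0.877 in the control and 1.12 with 4-OHT. Neither passed a test.

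Of 6 tested degradation genes Edem1 and Derl2 rose with CBD, where 18.4% of all tested genes did. The median of the 6 was 0.38, which became −0.04 with columns set to the same sum, beside 0.29 and −0.13 for all tested genes. Edem1, a lectin that hands misfolded glycoproteins to degradation, stood at 23.2 FPKM in the control and 38.01 with CBD, and at 18.6 in the control and 22.2 with 4-OHT. Derl2 and Derl1 are membrane proteins of the retrotranslocation machinery. Derl2 was at 13.2 FPKM in the control and 21.5 with CBD, and at 12.5 in the control and 11.6 with 4-OHT, and Derl1 at 208 FPKM in the control and 379 with CBD, and at 147 in the control and 138 with 4-OHT. Derl1 had a larger log2 ratio with CBD, 0.86, than Derl2, 0.70, but missed the threshold (q = 0.128 for Derl1 and q = 0.0452 for Derl2 in the authors' deposited table). Derl3, the third derlin and one of the 37 genes with an ERSE, was at 0.0332 to 0.0630 FPKM in the 4 columns.

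The other degradation genes differed more between the controls than with either treatment. Herpud1 (chromosome 8, 96910400 to 96919258 in mm9), a scaffold of the HRD1 ligase complex, stood at 203 FPKM in the control and 182 with CBD, and at 56.5 in the control and 71.2 with 4-OHT. Both values of the CBD table were above both values of the 4-OHT table, with the widest gap between control columns among the 47 members (a log2 difference of 1.84). Syvn1, the HRD1 ubiquitin ligase, was at 21.3 FPKM in the control and 20.6 with CBD, and at 11.9 in the control and 14.9 with 4-OHT, and its adaptor Sel1l at 28.5 FPKM in the control and 29.8 with CBD, and at 21.9 in the control and 22.03 with 4-OHT. With 4-OHT Herpud1, Syvn1 and Edem1 rose, with log2 ratios of 0.33, 0.33 and 0.25, and all 3 remained below the control of the CBD table.

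The translocon and its partner, the translocon-associated protein (TRAP) complex, had 6 of 9 genes rise with CBD, a median log2 ratio of 0.90 (0.48 with columns set to the same sum) and the highest single ratio of the 48 genes. Over all tested genes 18.4% rose with CBD. Ssr4 (chromosome X, 71032367 to 71036167 in mm9), the delta subunit of TRAP, stood at 122 FPKM in the control and 360.4 with CBD, and at 183 in the control and 185 with 4-OHT. Its log2 ratio with CBD was 1.56, and its q is listed as 0 in the authors' deposited table. Ssr2 (beta) was at 202 FPKM in the control and 378 with CBD, and at 298 in the control and 261 with 4-OHT. Ssr3 (gamma) was at 142 FPKM in the control and 282 with CBD, and at 136 in the control and 139 with 4-OHT. In these 3 subunits the CBD value was above every other column. Ssr1 (alpha) was at 22.1 FPKM in the control and 37.98 with CBD, and at 38.95 in the control and 34.2 with 4-OHT, so it was several-fold less abundant than its partner subunits in each column.

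The channel is built of 3 SEC61 subunits. Sec61b, the small beta subunit, stood at 319.8 FPKM in the control and 657 with CBD, and at 278 in the control and 299 with 4-OHT. Sec61g, the gamma subunit, was at 123 FPKM in the control and 268 with CBD, and at 137 in the control and 156 with 4-OHT. Sec61a1, the pore-forming alpha subunit, was at 159.9 FPKM in the control and 260.2 with CBD, and at 149 in the control and 144 with 4-OHT. The first 2 rose with CBD, and Sec61a1, with a log2 ratio of 0.70, did not pass (q = 0.114 in the authors' deposited table). Sec62 and Sec63, which serve post-translational import and recruit BiP, are separate membrane proteins. Sec62 was at 43.1 FPKM in the control and 50.6 with CBD, and at 42.2 in the control and 44.5 with 4-OHT, and Sec63 at 8.01 FPKM in the control and 6.49 with CBD, and at 8.28 in the control and 8.99 with 4-OHT. Neither passed a test. With 4-OHT Sec61g rose by a log2 ratio of 0.18, and Ssr1 and Ssr2 had falls of −0.19 and −0.19.

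In signal peptidase, which cuts off the signal sequence, 2 of 3 genes rose with CBD, where 18.4% of all tested genes did. Spcs1 stood at 84.99 FPKM in the control and 179.8 with CBD, and at 144 in the control and 133 with 4-OHT. Spcs2 was at 76.7 FPKM in the control and 139 with CBD, and at 71.5 in the control and 72.5 with 4-OHT. Spcs3 was at 92.1 FPKM in the control and 143 with CBD, and at 114 in the control and 108 with 4-OHT (q = 0.0841 for CBD in the authors' deposited table). All 3 CBD values were above both controls, and none of the 3 changed with 4-OHT at a q or an unadjusted p under 0.05.

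Oligosaccharyltransferase (OST), which attaches the glycan to the nascent chain, had 3 of 5 genes rise with CBD and 4 of 5 fall with 4-OHT. Over all tested genes these shares were 18.4% and 16.9%. Rpn1, the ribophorin I scaffold, stood at 90.4 FPKM in the control and 163 with CBD, and at 124 in the control and 109 with 4-OHT. Ddost was at 141 FPKM in the control and 239.6 with CBD, and at 191 in the control and 168 with 4-OHT. Dad1, a small subunit named for its protection from apoptosis, was at 152 FPKM in the control and 259 with CBD, and at 278 in the control and 252 with 4-OHT. These 3 genes rose in the first comparison and fell in the second, as did Ssr1 and Ssr2 of TRAP, and no other member did. Stt3a, the catalytic subunit, was at 141 FPKM in the control and 231 with CBD, and at 164 in the control and 139 with 4-OHT (q = 0.065 for CBD and q = 0.000208 for 4-OHT in the authors' deposited table). Rpn2, ribophorin II, was at 194 FPKM in the control and 242 with CBD, and at 239 in the control and 219.5 with 4-OHT and passed neither test. All 5 genes were lower in the control of the CBD table than in the other control, by a median log2 difference of −0.43, and the falls with 4-OHT ranged from −0.23 (Stt3a) to −0.14 (Dad1).

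**Figure D4:**
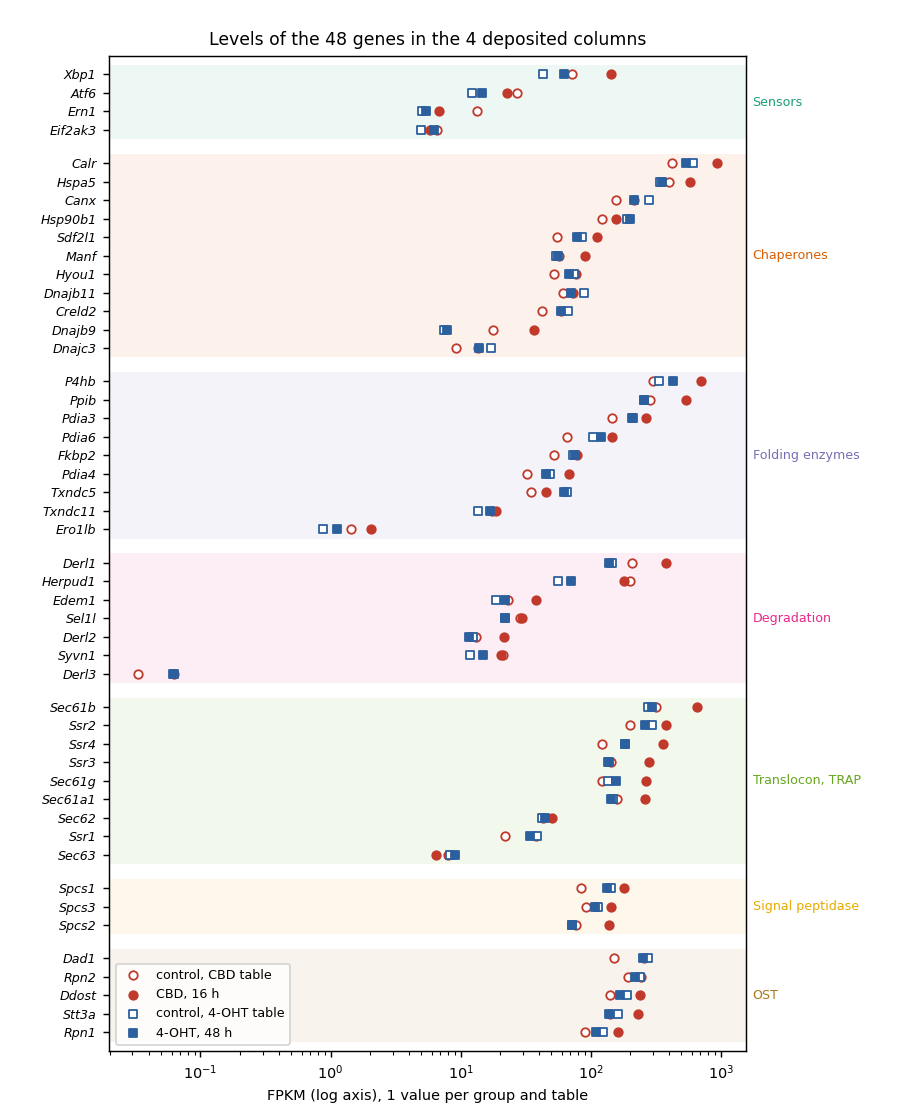
FPKM of the 48 genes on a log axis, by role and in order of the CBD value, with 1 point for each of the 4 deposited columns. Calr, P4hb, Sec61b, Hspa5 and Ppib have the highest values with CBD, from 942 to 537 FPKM, and Ero1lb stands at 0.877 to 2.03 FPKM and Derl3 below 0.1; both Herpud1 values of the CBD table lie right of both values of the 4-OHT table.

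The control columns themselves differ by role, as the ratios to both controls show. In the CBD table the role medians of the log2 ratio were −0.22 for sensors, 0.55 for chaperones, 0.87 for folding enzymes, 0.38 for degradation, 0.90 for the translocon, 0.86 for signal peptidase and 0.76 for OST. In the 4-OHT table they were 0.28, −0.14, 0.06, 0.13, 0.03, −0.08 and −0.18 in the same order. The medians of the control of the CBD table over the other control were 0.94, −0.53, −0.48, 0.44, −0.05, −0.31 and −0.43. Against the other control the CBD medians were 0.67, 0.05, 0.48, 0.91, 0.80, 0.32 and 0.33. The translocon median thus changed by about 0.1 between controls, but its single genes moved more and in both directions. Ssr1 went from 0.78 to −0.04 and Sec61b from 1.04 to 1.24. The medians of sensors and degradation genes were above 0 and that of chaperones near 0 against the other control. With columns set to the same sum the CBD medians were −0.64 for sensors, 0.44 for signal peptidase and 0.35 for OST, beside those given above for the other roles, and the 4-OHT median of the translocon was −0.02. The CBD median of all tested genes was then −0.13.

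Among the 48 genes 9 changed in both comparisons. The share of all tested genes that did so is not given here, so the count is description only. Xbp1, Pdia6, Edem1 and Sec61g rose in both, and Rpn1, Ddost, Dad1, Ssr1 and Ssr2 rose with CBD and fell with 4-OHT. A further 12 rose with CBD and did not pass with 4-OHT. Members that passed neither test numbered 13: Ern1, Hspa5, Hsp90b1, Txndc5, Ero1lb, Fkbp2, Sel1l, Derl1, Sec61a1, Sec62, Sec63, Spcs3 and Rpn2.

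Transcript length moved with the CBD ratio. Across 5861 genes at 10 FPKM or more in both controls Spearman's rho between the log2 ratio and the longest annotated transcript was −0.42, and across the 47 members, which share the same 2 columns, it was −0.55; with 4-OHT it was 0.06 for the members. Of 24 members up to the median length of 3172 bp 15 rose with CBD, and of 23 longer ones 6 did, with median log2 ratios of 0.95 and 0.54. Over all tested genes 18.4% rose, and the share in each length class is not given here. Minus the trend over the 5861 genes the medians were 0.74 and 0.62, and that of all 47 members was 0.71 with 45 above 0. Sec61b, with a longest transcript of 723 bp, went from 1.04 to 0.51, Sdf2l1, with 1108 bp, from 1.02 to 0.62, and Ssr1, with 9333 bp, from 0.78 to 1.52. Ern1 (6946 bp) and Herpud1 (1952 bp) stayed below 0, at −0.50 and −0.33. Which transcript the cells express was not examined.

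**Figure D5:**
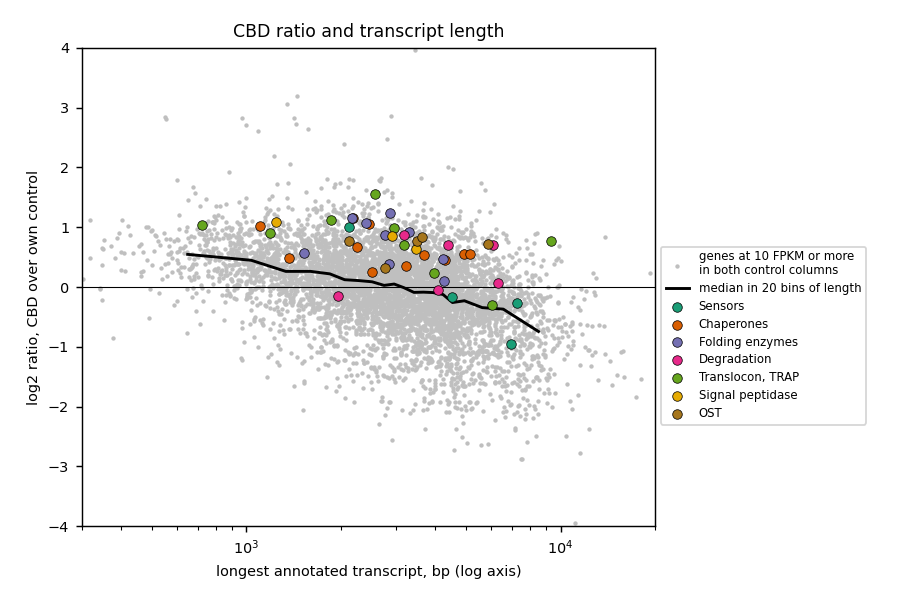
Log2 ratio of CBD over its own control against the longest annotated transcript (log axis) for genes at 10 FPKM or more in both controls (grey), with the median in 20 bins of length (line) and the 47 tested members (coloured by role). The line goes from 0.55 in the shortest bin to −0.74 in the longest, and most members lie above it; 66 of 5861 genes lie outside the axes.

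Members with an ERSE were described apart, with no test. Of the 8 tested, 1 rose with CBD, and their median log2 ratio was 0.51. Of 31 members with a promoter and no ERSE 18 rose, and their median was 0.77. Among all tested genes 18.4% rose with CBD. With 4-OHT 2 of the 8 rose (Pdia6 and Syvn1) and 4 fell (Calr, Canx, Creld2 and Dnajc3), and of the 31 others 7 rose and 6 fell. Among all tested genes 27.2% rose with 4-OHT and 16.9% fell. The CBD medians of 0.51 and 0.77 became 0.09 and 0.35 with columns set to the same sum, and 0.14 and 0.45 against the other control. Minus the length trend they were 0.61 and 0.81, and the median longest transcripts were 3447 and 2861 bp. The ERSE members had a median of 93.6 FPKM in the control of the CBD table and the others 71.4.

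Other genes of the same pathway, 99 listed in 7 groups of which 96 are in the tables, were read the same way. They too were chosen with earlier results of these data known. With CBD 32 of 94 tested rose, against 18.4% of all tested genes, and 2 fell (Sec16a and Ppp1r15a), against 7.74%, with a median log2 ratio of 0.45 that became 0.03 with columns set to the same sum. For all tested genes these medians were 0.29 and −0.13. Of the 32 that rose, 31 lay above both controls. In the genes of vesicle export and retrieval 7 of 18 rose and 1 fell, including Kdelr3, a receptor that returns luminal proteins to the organelle, from 16.1 to 51.96 FPKM, and Surf4, a cargo receptor, from 109.5 to 255 FPKM. In signal recognition and translocation 6 of 14 rose, with Srp14 of the signal recognition particle from 102 to 229.9 FPKM and Serp1, a translocon-associated stress protein, from 172 to 377 FPKM. The prolyl isomerase gene Fkbp11, from 18.8 to 58.4 FPKM, and the thioredoxin-like Txndc12, from 17.99 to 37.6 FPKM, were among 5 of 19 other folding genes that rose. Of 6 further OST genes 4 rose, led by Ost4, from 164 to 369 FPKM, and Ostc, from 99.7 to 204 FPKM. In the other control Ost4 stood at 294 and Ostc at 100.3 FPKM. Those in the glucosidase and lectin cycle were 4 of 9, with Mcfd2, a cargo receptor partner, from 13.9 to 33.4 FPKM, and Lman2 from 42.2 to 69.1 FPKM. In the other control Mcfd2 stood at 15.1 and Lman2 at 61.97 FPKM. In further degradation genes 4 of 16 rose, with Selk from 44.7 to 109 FPKM and Edem2 from 24.3 to 50.9 FPKM.

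The last group holds other genes that relay the stress signal, PERK targets among them. Of 12 tested 2 rose with CBD, the transcription factor gene Creb3 from 10.7 to 28.1 FPKM and Wfs1 from 0.1598 to 1.88 FPKM, and Ppp1r15a (GADD34), which reverses the PERK signal, fell from 92.1 to 54.1 FPKM and stayed above the other control. Over all tested genes 18.4% rose with CBD and 7.74% fell. Ddit3, the gene of CHOP, was at 191 FPKM in the control and 127 with CBD. With 4-OHT Ddit3 rose from 26.9 to 37.7 FPKM and Ppp1r15a from 15.4 to 21.96 FPKM, and 5 of 11 tested genes rose and 1 fell, with none of the 5 above the control of the CBD table. Over all 7 groups 18 of 89 tested genes rose with 4-OHT, against 27.2% of all tested genes, and 21 fell, against 16.9%. The glucosidase and lectin cycle fell in 5 of 8 cases, with Mogs, the first glucosidase, from 68.3 to 56.02 FPKM and the folding sensor gene Uggt1 from 25.6 to 21.1 FPKM. Fkbp11 rose from 19.8 to 27.8 FPKM, Selm from 1.87 to 4.11 FPKM, Selk from 48.1 to 60.7 FPKM, Kdelr3 from 6.12 to 10.9 FPKM, Tram2 from 4.09 to 5.42 FPKM and Tusc3 from 31.8 to 39.97 FPKM. Edem3 fell from 17.05 to 13.3 FPKM, Srprb from 29.3 to 24.2 FPKM, Stt3b from 72.7 to 65.6 FPKM and Tmed2 from 319 to 254 FPKM. Of these, Tram2, Tusc3, Kdelr3, Mogs, Edem3 and Tmed2 lay on the opposite side of the control column of the CBD table.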

How the data were processed

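RNA-seq was done on 6 samples in 3 groups of 2. Per the submitters' processing notes, reads were aligned with Bowtie 0.12.2 to mm9 and groups compared with Cuffdiff; for Cuffdiff the version, the settings and the gene models are not stated in the sources used here. The deposited FPKM values, 1 per group and table, and the p-value and q-value of each gene were also deposited by the authors. Depth and precision are therefore unknown, and no interval was computed.

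Genes with status OK are the tested genes (13751 with CBD, 11232 with 4-OHT), and q under 0.05 over all of them is the call. No test was added. Ratios, medians, counts and motif searches were computed with Python 3.11.15, pandas 2.3.3, numpy 2.4.6 and scipy 1.17.1, and the length trend and motif search were checked on simulated data. All 48 members, the pathway lists and the markers were chosen with earlier results of these data known, and every member may be named; of the other pathway genes, up to 2 per list and comparison with the largest ratio among called genes averaging 1 FPKM or more. Lengths are the longest GENCODE vM21 transcript by symbol (97.9% of genes, all members), used without its coordinates. Promoters are RefSeq's on GRCm38.p6, gene positions those of the tables with 1 added to the start. The protein features planned were not examined. The alternatives were a q of 0.01, minimums of 1 FPKM and, added after seeing the data, 10 FPKM, both controls, pseudocounts of 0.01 and 1, the length trend, the median of all genes and, also added after seeing the data, equal column sums.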

Additional observations from a re-analysis of the deposited data

How the results depend on the processing

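With 1 value per group, leaving out a replicate could not be done. No paired analysis was possible because the tables carry no values per library. At a q of 0.01, 12 members rose with CBD in place of 21, and of the other pathway genes 0 fell in place of 2. Counting only genes on the same side of both controls gave 3 rises and 1 fall of members with 4-OHT in place of 10 and 12, 8 rises and 10 falls of the other genes in place of 18 and 21, and 1 fall of those with CBD in place of 2. The median of the members with CBD, 0.70, was 0.47 against the other control, 0.41 minus the median of all tested genes and, in an alternative chosen after seeing the data, 0.28 with equal column sums; with 4-OHT, 0.01 became 0.18 against the other control. The other counts stayed within 1.5 times, and the other medians within 0.1, of their values under the alternatives run. Called log2 ratios that changed sign against the other control were, with CBD, Ssr1 −0.036, Dad1 −0.10, and with 4-OHT, Eif2ak3 −0.087, Atf6 −0.90, Xbp1 −0.18, Hyou1 0.37, Dnajb11 0.21, Dnajc3 0.59, Creld2 0.48, Calr 0.37, Canx 0.46, Txndc11 −0.059, Herpud1 −1.51, Edem1 −0.067, Syvn1 −0.51, Ssr1 0.62, Ssr2 0.37, Dad1 0.73, Ddost 0.25, Rpn1 0.27; the cause was not tested. Of the 94 single ratios, 64 more moved by over 0.1 against the other control, and 2 did with a pseudocount of 1 FPKM. Depth, and so what it limits, is unknown.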

Other observations

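The ERSE letters were also found in genes outside the group. Of the 37 genes of the promoter table with an ERSE, 24 are in the expression tables, and 15 of those are not members and belong to none of the other pathway lists. Of these 15, 7 were tested with CBD: the adenylate cyclase gene Adcy3 rose, from 0.109 to 0.946 FPKM, and Hnrnpa3, an RNA-binding protein gene, fell from 40.5 to 19.9 FPKM. With 4-OHT 4 were tested, and Hnrnpa3, from 45.3 to 56.5 FPKM, and the deadenylase gene Pan2, from 3.06 to 4.65, rose. Alg12, a mannosyltransferase of glycan assembly in the endoplasmic reticulum, passed neither test, with 11.07 FPKM in the control and 11.3 with CBD, and 8.85 in the control and 8.42 with 4-OHT.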
